A study of Bos taurus with 6 samples.

Results

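The peroxiredoxin and thioredoxin genes described here are PRDX1 to PRDX6, TXN, TXN2, TXNRD1 and TXNRD2, and all 10 were found by their symbol, each under 1 identifier, among the 36075 genes of a bovine blastocyst RNA-seq table. Blastocysts came from cumulus-oocyte complexes of slaughterhouse ovaries that were matured in vitro for 22 h with 1e-07 mol/L melatonin (MT) or, in the control, without MT, and that were then fertilized and cultured in the same way without further treatment named in the methods. Each group had 3 libraries, each from a pool of 3 blastocysts and, per the methods, from a separate in vitro production run within its group. Control and MT treatment were carried out side by side in each run, so libraries of the 2 groups can share a run, which the labels do not match up. A value is an average over embryos and over their inner cell mass and trophectoderm. MT was given to the oocyte with its cumulus cells, and the RNA was measured later, in the embryo. The comparison addresses whether the transcripts of this antioxidant system differed in blastocysts from MT-treated oocytes.

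Peroxiredoxins are thiol peroxidases, which reduce hydrogen peroxide and organic peroxides with a reactive cysteine that is oxidized in the process. Thioredoxin returns most of them to the reduced state, and thioredoxin reductase, a selenium-containing flavoenzyme, in turn reduces thioredoxin with electrons from NADPH. The system is laid out by compartment, with PRDX1, PRDX2, PRDX6, TXN and TXNRD1 mainly in the cytosol, PRDX3, TXN2 and TXNRD2 in mitochondria, PRDX5 in mitochondria, peroxisomes and cytosol, and PRDX4 in the endoplasmic reticulum. In embryos produced in vitro it is among the main defences against peroxide formed during culture and respiration.

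The deposited values are in TPM, a read-based transcript level that is corrected for gene length and for the total of the library, so that genes of unlike length can be compared. TPM holds no counts. The paper places the sequencing depth of each replicate in its supplement, which was not used here, so the depth behind each value is not given. The listed values summed to between 936783 and 937698 TPM in the control and to between 912686 and 913707 TPM in the MT-treated libraries, and 8854 to 8953 genes were above 0 in a control library against 14372 to 14408 in an MT-treated library. Because genes that most cells use are among those at 0, a gene at 0 is described only as listed at 0. The 11953 genes with at least 1 TPM in at least 3 libraries were compared with limma on log2(TPM + 1) with Benjamini-Hochberg adjustment, and 95.7% of them passed an adjusted p-value of 0.05. The groups did not overlap for 96.1% of the genes tested. Levels of 5 marker lists, for cells that a blastocyst sample can hold, are given beside this. Of 9 listed trophectoderm markers, 8 were above 0 in control and 9 in MT-treated blastocysts, with sums of 11479 to 11820 and 10724 to 11087 TPM. By the same limma fit 7 of these 9 were higher after MT, among them KRT18 (means of 2766 and 3654 TPM) and CDX2, which was listed at 0 in each control library, and 2 were lower, KRT8 (8695 and 6905 TPM) and TFAP2A (36.1 and 0.49 TPM). Of 7 inner cell mass markers, 6 and 7 were above 0 (sums of 276 to 280.4 and 329 to 332 TPM). Of these 7, 3 were higher, namely KLF4 (18.1 and 83.8 TPM), SOX2 and NANOG, which was listed at 0 in each control library, 2 were lower, namely SALL4 (56.8 and 26.6 TPM) and LIN28B, and POU5F1 and PRDM14 did not pass the test. Over all genes tested 61.6% were higher and 34.1% lower. CDX2, NANOG and SOX2 met the level for testing only through the MT-treated libraries, so they could only be higher. TFAP2A and LIN28B met it only through control and could only be lower. Of 5 hypoblast markers, 1 and 4 were above 0 (sums of 0.20 to 0.44 and 61.2 to 69.6 TPM). Of 9 listed cumulus and granulosa markers, 1 and 4 were above 0 (sums of 17.2 to 19.2 and 15.2 to 17.2 TPM). Nearly all of these sums was FSHR, with 17.2 to 19.2 TPM in control and 15.03 to 17.1 TPM after MT, while CYP19A1, HAS2 and PTX3 did not reach the level for testing. Of 10 maternal oocyte markers, 2 and 5 were above 0 (sums of 239.7 to 247 and 128 to 134 TPM). The part of these differences in the results below was not tested, and in whole embryos a smaller number of cells of a type and less RNA per cell cannot be told apart.

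Relative to control, MT-treated blastocysts had higher levels of 6 and lower levels of 4 of the 10 genes (limma, threshold of 0.05 on the adjusted p-value), where 61.6% of all genes tested were higher and 34.1% were lower, shares close to those of the members. PRDX3 and TXNRD1, listed at 0 in every control library, met the level for testing only through the MT-treated libraries and so could only be higher, as could all 4037 genes tested that were at 0 there. The abundant members differed little in size. PRDX1, PRDX2, PRDX4, PRDX5, PRDX6, TXN and TXN2, the 7 members with a mean of at least 100 TPM over all libraries, all differed by less than 2-fold, as did 82.7% of the 1311 genes at this level. The other 3 members, PRDX3, TXNRD1 and TXNRD2, were the least abundant and were higher in MT-treated blastocysts by more than 2-fold on the log2(TPM + 1) scale, as were 51.0% of the genes tested, and none of the 10 was lower by 2-fold or more, as were 19.6%.

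**Figure D1:**
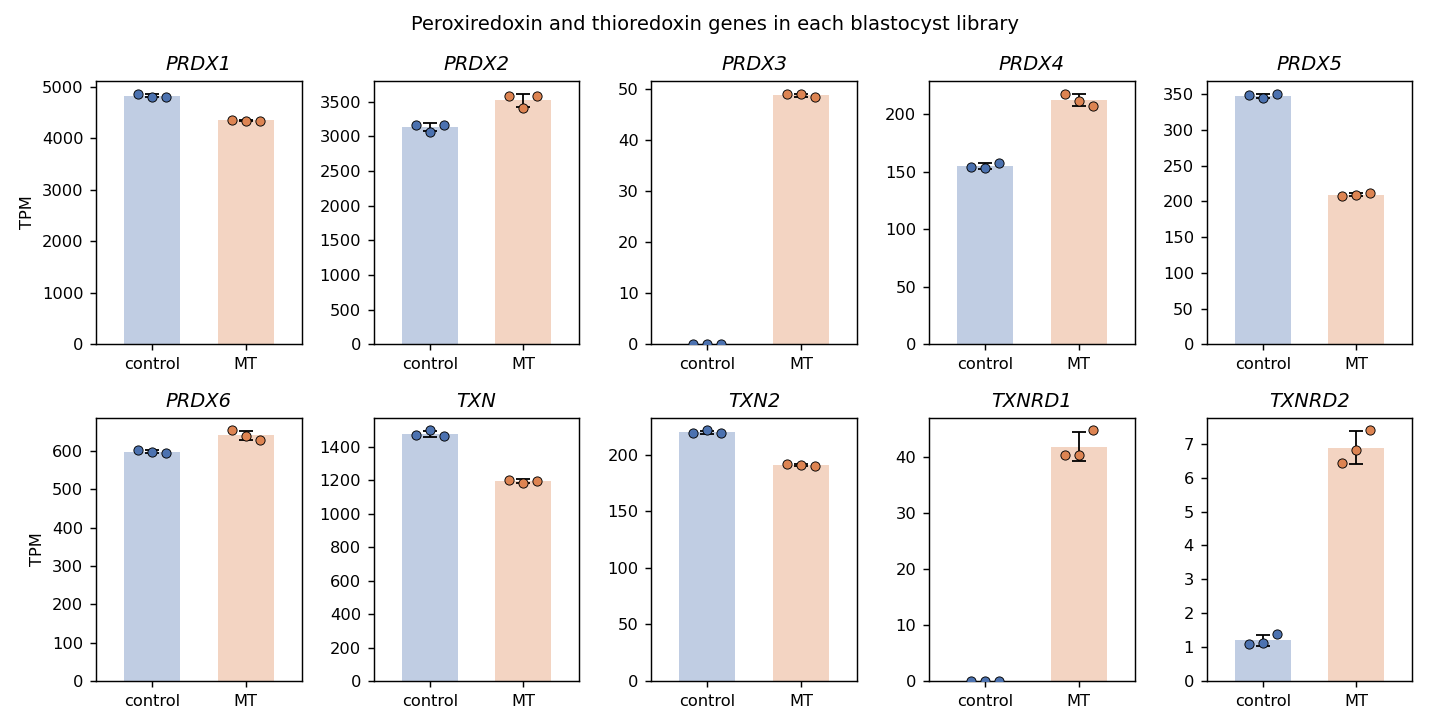
TPM of each gene (y axis, own scale per panel, starting at 0) in the 3 control and 3 MT-treated (MT) libraries, with bars at the mean, error bars of 1 SD and a point per library. The 2 groups do not overlap in any panel, nor do they for 96.1% of the genes tested. Differences run from 7.02% for PRDX6 to PRDX3 and TXNRD1, which are listed at 0 in every control library.

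PRDX1 and PRDX2, cytosolic peroxiredoxins that remove hydrogen peroxide, were the most abundant members and moved in opposite directions on the deposited scale. Median centring set each library on its median over genes of at least 1 TPM in all libraries. Both genes were then higher (0.33 and 0.65 on the log2 scale). PRDX1 (ENSBTAG00000003642) had 4871, 4812 and 4814 TPM in control and 4359.7, 4345 and 4345 TPM after MT. PRDX2 (ENSBTAG00000012062) had 3166, 3061 and 3166 TPM in control and 3575, 3414 and 3577 TPM after MT. Every MT-treated value of PRDX1 was below, and every MT-treated value of PRDX2 above, the control values. PRDX1 fell by 9.98% in mean TPM, with a limma log2 fold change of -0.15 (SE 0.0068, adjusted p = 1.25e-06), and PRDX2 rose by 12.5%, with a limma log2 fold change of 0.17 (SE 0.024, adjusted p = 0.000488). PRDX1 had the 14th highest mean of all listed genes in control and the 18th highest in MT-treated blastocysts, whereas PRDX2 was 36th and 27th.

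The proportion of both genes to each other differed between the groups. PRDX1 and PRDX2 made up 87.8% ± 0.0564 of the peroxiredoxin TPM in control and 87.6% ± 0.183 in MT-treated blastocysts (SD, n = 3 each). The ratio of PRDX1 to PRDX2 was 1.54, 1.57 and 1.52 in control and 1.22, 1.27 and 1.21 after MT. This ratio is taken within a library, so a constant factor per library does not change it, although quantile normalization can, and its values did not overlap between the groups. The groups did not overlap for 96.1% of single genes tested, and no such share was computed for ratios. PRDX1 accounted for 53.3% ± 0.325 of the peroxiredoxin TPM in control and 48.4% ± 0.501 after MT, and PRDX2 for 34.5% ± 0.371 and 39.2% ± 0.616 (SD, n = 3 each), where PRDX3 held 0.543% of this TPM after MT and was listed at 0 in control.

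The summed TPM of the 5 peroxiredoxins above 0 in every library, which leaves out PRDX3, was 9145, 8968.5 and 9082 in control and 9015, 8818 and 8971 after MT. These sums overlapped between the groups, and the difference of the means, -131 TPM, was larger than the SD between control replicates (89.3 TPM) and between MT-treated replicates (104 TPM). With TXN, TXN2 and TXNRD2 added, the sum over the 8 members above 0 in every library was 10838.5, 10692 and 10766 TPM in control and 10418.5, 10198 and 10367 TPM after MT, without overlap, and the difference of the means was -438 TPM (SD 73.3 and 115 TPM). As a share of the listed total, which was itself lower after MT, these 8 members came to between 1.141% and 1.156% in control and between 1.117% and 1.140% after MT, ranges that only just did not overlap. With PRDX3 and TXNRD1 included at their listed values, the share after MT was 1.127% to 1.150% and overlapped that of control. After median centring 7 of the 8 were higher, against the direction of the sum.

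**Figure D2:**
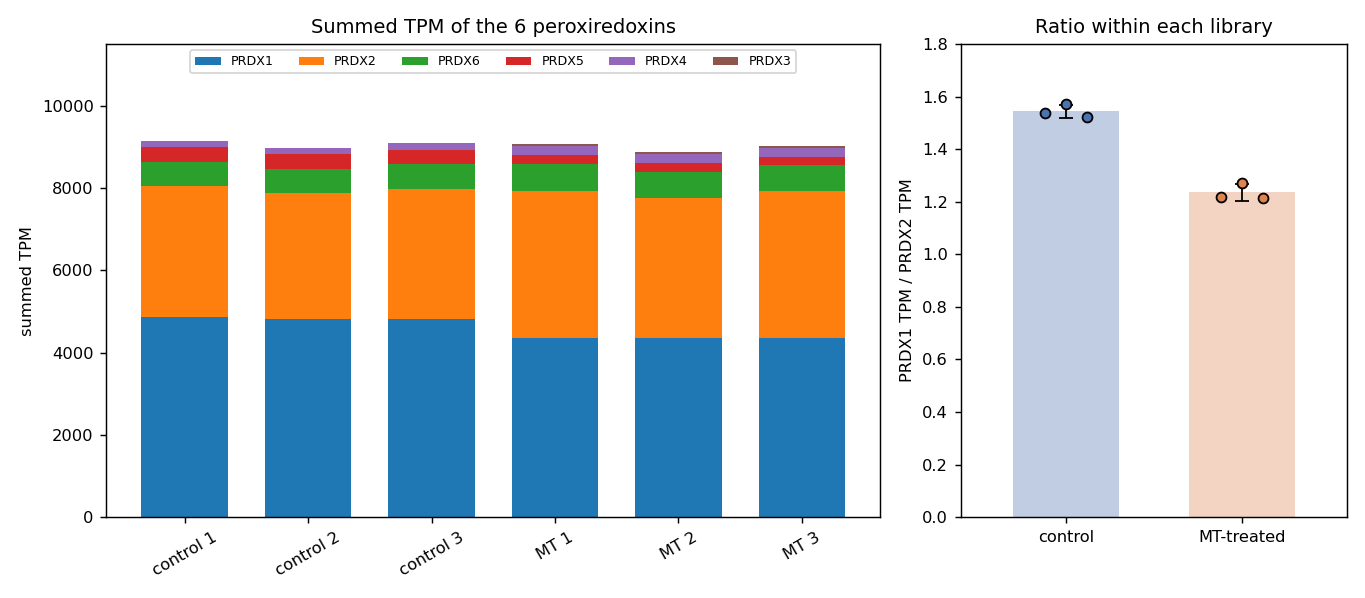
Left, TPM of the 6 peroxiredoxins stacked for each of the 3 control and 3 MT-treated (MT) libraries. Right, the ratio of PRDX1 to PRDX2 TPM in each library as points, with bars at the mean and error bars of 1 SD; the stacks reach 8867 to 9145 TPM in every library, while the ratio is 1.52 to 1.57 in control and 1.21 to 1.27 after MT.

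PRDX6 (ENSBTAG00000004855), a peroxiredoxin that also acts on phospholipid hydroperoxides and draws on glutathione rather than thioredoxin, had 604, 598 and 594 TPM in control and 654, 639 and 629 TPM after MT. The lowest MT-treated value lay above the highest control value, by a margin that exceeds the spread within control. On the deposited scale its limma log2 fold change of 0.098 (SE 0.017, adjusted p = 0.00163) was the smallest of the 10, and only 3.46% of the genes tested had a smaller one in size. After median centring it was 0.58, larger in size than those of PRDX1, PRDX5, TXN and TXN2. Under quantile normalization it was 0.18.

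PRDX4 (ENSBTAG00000006165), the peroxiredoxin of the endoplasmic reticulum, uses peroxide to drive disulfide bond formation in newly made proteins. It had 154, 153 and 158 TPM in control and 218, 212 and 208 TPM in MT-treated libraries. All MT-treated libraries were higher, and the rise of 37.1% in mean TPM (limma, log2 fold change 0.45, SE 0.025, adjusted p = 3.38e-06) was the largest among the members above 100 TPM that rose.

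PRDX5 and PRDX3 act in mitochondria, and PRDX5 alone of them was above 0 in every library. PRDX5 (ENSBTAG00000008648), which also acts in peroxisomes and the cytosol, had 349.8, 345 and 349.99 TPM in control and 208, 209 and 212 TPM after MT. Every MT-treated library was lower, and the mean fell by 39.9% (limma, log2 fold change -0.73, SE 0.015, adjusted p = 2.24e-08), the largest fall of the family. PRDX3 (ENSBTAG00000008731), the peroxiredoxin confined to mitochondria, was listed at 0 throughout control, with 49.0, 48.9 and 48.5 TPM after MT. Of 495 genes tested whose MT-treated mean was 40 to 50 TPM, 102 (20.6%) were likewise listed at 0 in every control library. PRDX5 was 4.24 to 4.37 times as abundant as PRDX3 in the MT-treated libraries.

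Both thioredoxins were lower in MT-treated blastocysts on the deposited scale and higher after median centring, while under quantile normalization TXN was lower (-0.27 on the log2 scale) and TXN2 was not called (0.0036, limma adjusted p = 0.800). TXN (ENSBTAG00000002953), the cytosolic form that also reduces ribonucleotide reductase and several transcription factors, had 1474, 1500.5 and 1464 TPM in control and 1205, 1182 and 1198 TPM after MT. TXN2 (ENSBTAG00000000014), the mitochondrial form, had 219, 222 and 219 TPM in control and 192, 191 and 191 TPM after MT. Neither gene had an MT-treated value within the control range. TXN fell by 19.2% in mean TPM (limma, log2 fold change -0.31, SE 0.013, adjusted p = 9.55e-07) and TXN2 by 13.0% (limma, log2 fold change -0.20, SE 0.014, adjusted p = 1.19e-05). TXN was 6.69 to 6.77 times as abundant as TXN2 in the control libraries and 6.18 to 6.29 times in the MT-treated libraries, ranges that did not overlap. How often ratios of other gene pairs overlapped was not computed.

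Both thioredoxin reductases had higher TPM in MT-treated blastocysts, where TXNRD1 could only be higher and TXNRD2 was lower under quantile normalization. TXNRD1 (ENSBTAG00000013912), the cytosolic enzyme, was listed at 0 throughout control, with 40.3, 40.4 and 44.8 TPM after MT. TXNRD2 (ENSBTAG00000043581), the mitochondrial enzyme, had 1.09, 1.11 and 1.39 TPM in control and 6.44, 6.82 and 7.40 TPM after MT, with a limma log2 fold change of 1.85 (SE 0.073, adjusted p = 6.43e-07). The MT-treated values of TXNRD2 were all above the control values, but its control level exceeded that of only 24.2% of genes above 0 in a control library, and under quantile normalization its log2 fold change was -0.93. The summed reductase TPM came to 48.7 ± 3.01 after MT, and no sum is given for control because TXNRD1 is only listed at 0 there, whereas the summed thioredoxin TPM was 1699 ± 20.3 in control and 1386 ± 12.01 after MT (SD, n = 3 each). TXN2 was 158 to 201 times as abundant as TXNRD2 in the control libraries and 25.7 to 29.8 times in the MT-treated libraries. TXN was 26.7 to 29.9 times as abundant as TXNRD1 in the MT-treated libraries, and no such ratio can be given for control.

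In control blastocysts the order of the mean levels in TPM was PRDX1, PRDX2, TXN, PRDX6, PRDX5, TXN2, PRDX4 and TXNRD2, with PRDX3 and TXNRD1 listed at 0, and no neighbours in this order had overlapping libraries apart from those at 0. In MT-treated blastocysts the first 4 were the same and were followed by PRDX4 and PRDX5, which overlapped at 208 to 218 and 208 to 212 TPM, and then by TXN2, PRDX3, TXNRD1 and TXNRD2. PRDX4 thus stood below PRDX5 in every control library and level with it after MT. The coefficient of variation of the 7 members above 100 TPM lay at 0.700% to 1.93% in control and 0.195% to 2.66% after MT, where the median over genes of at least 100 TPM was 1.601% and 2.01%. The 3 genes with a profile over the 6 libraries closest to that of PRDX1, by Euclidean distance on log2(TPM + 1), were RPS29 (0.229), COX7A2 (0.239) and PFN1 (0.241), all at about the same level. Distance on this scale reflects level more than the difference between the groups.

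**Figure D3:**
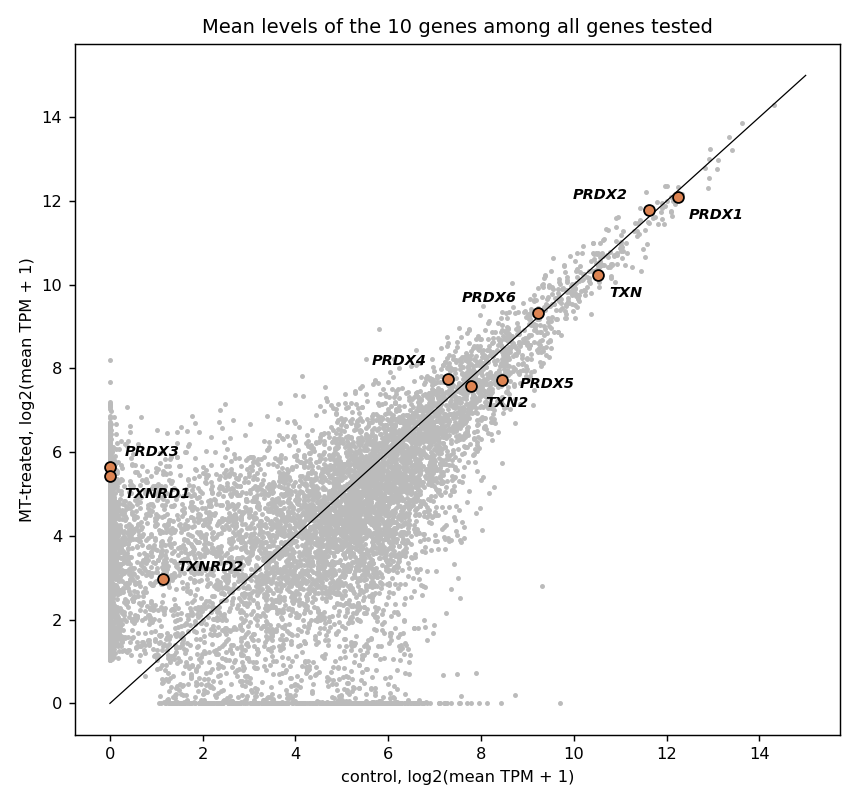
Mean level of each gene tested in control (x axis) and MT-treated blastocysts (y axis), both as log2(mean TPM + 1), with the 10 genes labelled and a line of equality. The 7 members of at least 100 TPM lie along the line among genes that spread little at that level, TXNRD2 lies among low genes that spread widely, and PRDX3 and TXNRD1 lie on the left edge with the 4037 genes listed at 0 in every control library.

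The direction of the small differences depended on how the libraries were scaled. Genes of at least 1 TPM in all libraries were shifted by -0.48 on the log2 scale in MT-treated relative to control blastocysts, and relative to that shift 9 of the 10 genes were higher and 1 was lower, as were 8412 and 3038 of the 11953 genes tested. The shift is that of 1 set of genes, since the median log2 fold change was 1.12 over all genes tested and -0.18 over genes of at least 100 TPM. PRDX1, TXN and TXN2 then had log2 fold changes of 0.33, 0.17 and 0.28, and PRDX5 remained lower at -0.25 (adjusted p = 2.70e-06). PRDX2, PRDX4 and PRDX6 were higher under the deposited scale, median centring and quantile normalization alike. Under quantile normalization, which gives all libraries one distribution, 5 genes were higher and 4 lower. PRDX5 was thus the only member lower under the deposited scale, median centring and quantile normalization. The falls of TXN and TXN2 on the deposited scale were smaller than the shift used for centring but lay below the median log2 fold change of all genes of at least 100 TPM, and that of PRDX1 lay above both values.

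**Figure D4:**
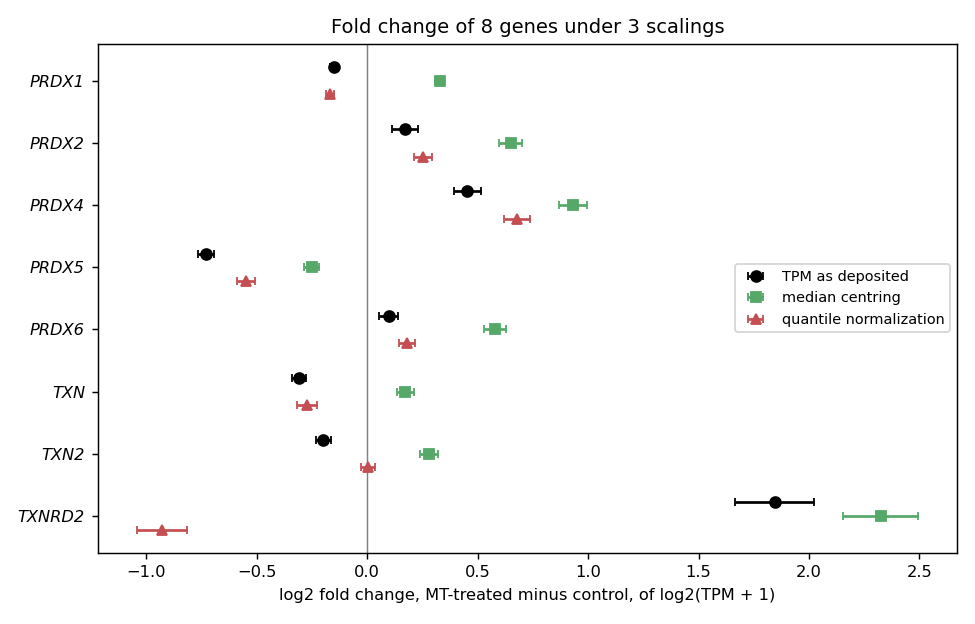
Log2 fold change of log2(TPM + 1), MT-treated minus control, with 95% confidence intervals from limma, for the 8 members above 0 in control, on the deposited TPM (circles), after median centring (squares) and after quantile normalization (triangles). PRDX1, TXN and TXN2 cross 0 after centring, TXNRD2 changes sign after quantile normalization (-0.93), and PRDX5 stays below 0 throughout.

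The other genes of the system were followed in a list of 71 by role, of which 70 were listed, 9 were at 0 in every library and 58 were tested. After MT, 33 of these 58 genes were higher and 22 lower (limma, adjusted p under 0.05), with 23 and 13 by at least 2-fold. Over all genes tested 61.6% were higher and 34.1% lower, and 51.0% and 19.6% by at least 2-fold, and the counts by role that follow are to be read against these shares. The median log2 fold change over the list was 0.24, against 1.12 over all genes tested. Of the 58, 14 were listed at 0 in every control library, so they could only be higher after MT. The same held for ME2, MTHFD2L, SRXN1 and MSRA, which were below 1 TPM in every control library. Genes below 1 TPM in every MT-treated library, SEPSECS and TMX4 among them, could only be lower. With median centring the split was 40 higher and 16 lower, and with quantile normalization 30 higher and 27 lower.

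NADPH is the electron source of the reductases, and of 15 tested genes of its supply 7 were higher and 7 lower. IDH2, which makes NADPH in mitochondria, had 62.6, 61.7 and 66.1 TPM in control and 1.35, 1.89 and 1.86 TPM after MT (limma, log2 fold change -4.58, SE 0.088, adjusted p = 1.91e-08). It was thus below 2 TPM in all MT-treated libraries. ME3, a mitochondrial malic enzyme, was listed at 0 throughout control, with 14.03, 14.13 and 14.02 TPM after MT, and could only be higher. MTHFD2L, a mitochondrial folate enzyme, had 0.20, 0.04 and 0 TPM in control and 30.9, 33.4 and 30.1 TPM after MT. Like ME3, it met the level for testing only through the MT-treated libraries. ME1, ME2 and NNT, also among the higher genes, did so too and could only be higher. The summed TPM of the NADPH genes was 1274 to 1288 in control and 1059 to 1091 in MT-treated libraries. TALDO1 held the largest part of this sum, with means of 510 TPM in control and 396 TPM after MT. Its log2 fold change was 0.12 after median centring and -0.20 under quantile normalization.

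Selenoprotein synthesis puts the catalytic selenocysteine into the reductases, and of 9 genes 4 were higher and 5 lower. SEPSECS, which makes selenocysteine on its tRNA, had 25.0, 26.6 and 22.4 TPM in control and 0.53, 0.50 and 0.65 TPM after MT (limma, log2 fold change -4.04, SE 0.073, adjusted p = 1.41e-08). It was below 1 TPM in every MT-treated library and met the level for testing only through control, so it could only be lower. TRNAU1AP, a protein that associates with that tRNA, had 72.01 ± 1.58 TPM in control and fell to 26.9 ± 0.41 TPM after MT (SD, n = 3 each). SECISBP2, which recruits the selenocysteine machinery to the transcript, rose from 2.37 ± 0.34 to 24.9 ± 0.804 TPM (SD, n = 3 each). SCLY, which frees selenium from selenocysteine, was listed at 0 throughout control, with 9.19, 10.3 and 10.1 TPM after MT. Genes of this route were therefore found in both directions, and the sum over the list was 597 to 605 TPM in control and 309.95 to 317 TPM after MT. SEPHS2 (means of 272 TPM in control and 111 TPM after MT) and SARS1 (191 and 79.7 TPM) held the largest parts of this sum.

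Among regulators and recycling enzymes, 5 of 8 tested genes were higher and 3 lower. TXNIP, which binds reduced thioredoxin and blocks it, had 50.6, 52.9 and 51.5 TPM in control and 16.8, 17.4 and 17.3 TPM after MT (limma, log2 fold change -1.54, SE 0.029, adjusted p = 1.85e-08), and its log2 fold change stayed negative after centring (-1.06) and after quantile normalization (-1.78). ARRDC3, an arrestin-domain relative of TXNIP, had 17.7 ± 0.208 TPM in control and fell to 7.68 ± 0.379 TPM after MT (SD, n = 3 each). SRXN1, sulfiredoxin, which rescues overoxidized peroxiredoxins, had 0, 0.01 and 0 TPM in control and 13.3, 12.9 and 13.2 TPM after MT. SESN1, a sestrin, was listed at 0 throughout control, with 4.13, 4.52 and 4.38 TPM after MT. TXNIP was thus lower in each of the 3 MT-treated libraries, while SRXN1 and SESN1 met the level for testing only through these libraries. The same held for ARRDC2 and ARRDC4, which are also among the higher genes of this role, so these directions were fixed beforehand.

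Of 14 tested thioredoxin-like proteins, 9 were higher and 5 lower. TXNDC15 was listed at 0 throughout control, with 32.3, 31.5 and 31.4 TPM after MT, and TXNDC16, which the study picked from these libraries, rose from between 1.86 and 2.11 TPM to between 22 and 22.6 TPM. TMX4, a thioredoxin-related membrane protein, fell from 29.1, 29.3 and 29.6 to 0.93, 0.86 and 0.68 TPM, and TXNL4B, also picked by the study, from 36.4, 36.8 and 35.6 to 2.87, 3.47 and 3.11 TPM. TMX4 met the level for testing only through control and could only be lower. These proteins share a fold with thioredoxin but not its level, which was 1182 TPM or more in every library.

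Of 3 tested glutaredoxins, which use glutathione in place of thioredoxin reductase, GLRX2 rose from 201 ± 2.47 to 234 ± 6.05 TPM and GLRX5 had 186 ± 2.42 TPM in control and fell to 177 ± 4.96 TPM after MT (SD, n = 3 each), and GLRX5 was higher under median centring (0.41) and quantile normalization (0.16). GLRX3 had 166 ± 3.45 and 163 ± 0.382 TPM (SD, n = 3 each) and did not pass the test (limma, adjusted p = 0.257), but was higher under median centring (0.45) and quantile normalization (0.22). Methionine sulfoxide reductases are repair enzymes that thioredoxin feeds, and of the 3 tested, MSRA and MSRB3 met the level for testing only through the MT-treated libraries, so their number is not a result. MSRB1 had 19.2 ± 1.09 TPM in control and rose to 21.4 ± 0.291 TPM after MT (SD, n = 3 each), but not under quantile normalization, with a log2 fold change of -0.030 (limma, adjusted p = 0.489). MSRA had 0.28, 0.55 and 0.40 TPM in control and 62.2, 60.9 and 60.1 TPM after MT, and MSRB3 was listed at 0 throughout control, with 19.6, 22.2 and 21.3 TPM after MT. Of 6 tested clients and partners of thioredoxin, 4 were higher and 1 lower. RRM2B, a subunit of ribonucleotide reductase, and MAP3K5, a stress kinase that reduced thioredoxin holds inactive, were listed at 0 throughout control, with 26.7, 27.0 and 27.8 and 22.3, 20.1 and 19.4 TPM after MT. APEX1, which passes electrons from thioredoxin to transcription factors, had 190.1 ± 0.863 TPM in control and fell to 129 ± 4.65 TPM after MT (SD, n = 3 each). Its log2 fold change was -0.56 on the deposited scale, -0.082 after median centring and -0.32 under quantile normalization.

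**Figure D5:**
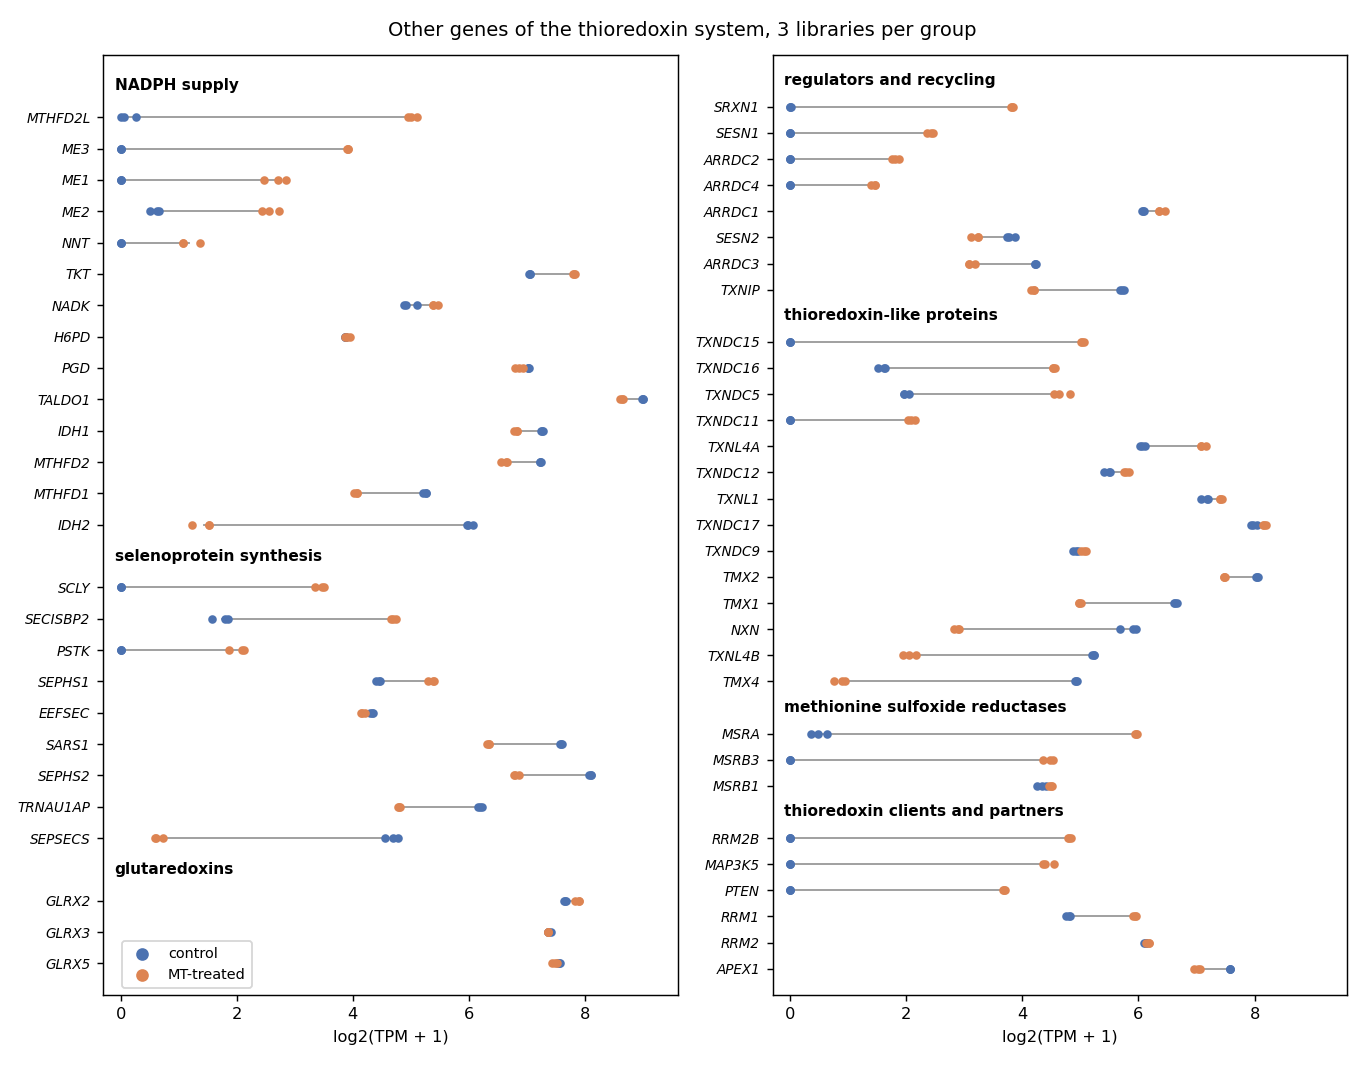
Levels of the tested genes of the pathway list, all but 1 of the 58, as log2(TPM + 1), grouped by role, with a point for each of the 3 control and 3 MT-treated libraries and a line between the group means. IDH2, SEPSECS and TMX4 fall to below 2 on this axis after MT, and 14 genes, among them ME3, SESN1 and TXNDC15, lie at 0 in every control library.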

How the data were processed

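RNA of bovine blastocysts was measured in 3 control and 3 MT-treated libraries. Per the study's methods, reads were cleaned with fastp, aligned with STAR 2.7.9a and counted with featureCounts (Subread 1.6.3). The methods name ARS-UCD1.3 and the submitters' processing notes ARS-UCD1.2, and the methods name Smart-seq2 while the labels name a TruSeq kit. The authors deposited TPM per gene, and how TPM were derived from the counted reads is not given in the sources used here. No count or depth can be derived from TPM, so no counting interval is given.

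Columns were matched to samples and groups through the labels. Genes of at least 1 TPM in at least 3 libraries were fitted on log2(TPM + 1) with limma 3.58.1 (lmFit, eBayes with trend) in R 4.3.3, without pairing, and two-sided p-values were Benjamini-Hochberg adjusted over all genes tested (threshold 0.05). The fit was tested on simulated data. An exact permutation test of 3 against 3 libraries cannot go below p = 0.1. Sums, shares and ratios were computed in Python 3.11.15 without a test. Figures used matplotlib 3.10.9.

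The members and lists were chosen with earlier results of these data known. All 10 members are named. From each role of the pathway list up to 2 rises and 2 falls of the largest log2 fold change among called genes without overlap are named, with genes the study names. GLRX3, MSRB1 and single marker genes were named after their values were seen. The alternatives were another pseudocount, 2 filters, 3 scalings, symbols only, no trend, a replicate block, genes above 0 in all libraries and each library left out. GLRX was not analysed here, and 1 gene that meets the rule is not reported here.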

Additional observations from a re-analysis of the deposited data

How the results depend on the processing

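The calls of all 10 members and their directions were the same with a pseudocount of 0.1, no filter, a minimum of 5 TPM, libraries rescaled to a common total, symbols only and no trend, and with each library left out while the tested genes were kept. Median centring gave 1 lower member in place of 4 and turned the log2 fold changes of PRDX1, TXN and TXN2 to 0.33, 0.17 and 0.28, because it removes the median shift of genes of at least 1 TPM in all libraries. Quantile normalization turned TXN2 to 0.0036 and TXNRD2 to -0.93, and the cause was not tested. Over all genes, 7367 were higher and 4071 lower, 8412 and 3038 after median centring, and 5550 and 5311 after quantile normalization. Restricting the table to genes above 0 in all 6 libraries, which drops genes listed at 0 in control such as PRDX3 and TXNRD1, left 17 of 33 higher genes of the pathway list and 2814 higher genes in all. Applying the filter again after leaving out a library, an alternative chosen after seeing the data, has a like effect when an MT-treated library is left out, since a gene at 0 in control then reaches 1 TPM in too few libraries. Over all fits that leave out 1 library, the higher genes of the pathway list ranged from 15 to 33 and those of the table from 2255 to 7338, with 2255, 2265 and 2255 when MT-treated replicate 1, 2 or 3 was left out and the filter applied again. Same-numbered libraries did not deviate together (correlations of their deviations from the group means of -0.011, -0.00068 and 0.059), so the numbers were not taken as pairs, and with a replicate block 7379 genes were higher and 4082 lower, 6 members were higher and 4 lower. Depth was not used here, and without it how well genes near 0 TPM were measured cannot be judged.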
